A study of Mus musculus with 48 samples.

Results

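The genes described here are the 73 genes of a table of 21558 mouse genes whose symbol is Gpr followed by a number and at most 1 letter. The pattern matched 74 symbols, and Gpr165 was left out. These symbols were given to orphan G protein-coupled receptors, that is, receptors named from their sequence before a ligand was known, so the set is defined by naming and not by function. Several members have since gained ligands, such as Gpr34, a receptor for lysophosphatidylserine, and Gpr4, which senses protons. Others, such as Gpr89, Gpr107, Gpr108, Gpr137 and Gpr180, are multi-pass proteins for which receptor function is not established, several of them in Golgi or lysosomal membranes.

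RNA was sequenced from mouse hypothalamus in 48 libraries, each a pool from 3 mice, out of 144 C57BL/6N males. Hind limb unloading, which lifts the hind paws off the floor as a ground model of weightlessness, was set against free movement. Noise stands here for 85 dBA and 0.9 atm applied together, which cannot be told apart, and quiet for 10 dBA and normal pressure. The 8 series of 6 libraries were late unloaded in noise, late free-moving in noise, late unloaded in quiet, late free-moving in quiet (all at 3 months of age), early unloaded in quiet a and b, and early free-moving in quiet a and b (all at 2 months). Series a and b carry the same labels. The 6 libraries of a series are told apart by the numbers 1, 5, 9, 13, 17 and 21 in their titles, to which the labels give no unit. Each late condition is 1 series, so its difference from another cannot be told apart from any other difference between those series, and p-values measure only the spread between pools.

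A G protein-coupled receptor crosses the cell membrane several times and, once active, lets an alpha subunit of a G protein part from its beta and gamma subunits. The alpha subunits of the Gs class raise cyclic AMP through adenylyl cyclases, those of the Gi class lower it, and those of the Gq class release calcium. RGS proteins end the signal at the alpha subunit, and receptor kinases with arrestins end it at the receptor. The hypothalamus, which governs feeding, body temperature, hormone release and daily rhythm, is rich in such receptors, and some orphans act without a ligand.

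Values are RPKM, reads scaled by transcript length and by the mapped reads of the library, so levels can be set side by side between genes. They are shares of a library, and the 13 mitochondrially encoded genes took a share of all RPKM that moved with the series. That share was 10.5% to 50.04% in the late unloaded noise libraries, 15.1% to 38.8% in the late free-moving noise libraries, 12.7% to 16.6% in the late unloaded quiet libraries and 8.95% to 13.5% in the late free-moving quiet libraries. It was 11.2% to 48.2% and 24.6% to 51.0% in early unloaded series a and b, and 18.7% to 62.4% and 31.7% to 53.2% in series a and b of the early free-moving mice. Read depth recovered from the values was 28.3 to 55.2 M reads per library. The 10 hypothalamus markers summed to 1587 to 11373 RPKM per library, lowest in the late quiet free-moving series (median 1955 RPKM). The median was 2711 RPKM in late unloaded quiet, 5516 RPKM in late free-moving noise and 6724 RPKM in late unloaded noise libraries. In series a and b it was 4552 and 6666 RPKM in early free-moving mice, and 7013 and 7089 RPKM in early unloaded mice. The part of these markers in the comparisons below was not tested. The 7 libraries at numbers 9, 13, 17 and 21 of the late unloaded quiet series and at 9, 13 and 17 of the late free-moving quiet series stand apart. The thalamus and habenula genes Tcf7l2, Prkcd, Lef1 and Rora summed to 47.4 to 90.9 RPKM in them, against 10.6 to 26.2 RPKM in the other 41 libraries.

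Most members were detected. Of the 73, 9 averaged at least 10 RPKM over all libraries, 35 lay between 1 and 10 RPKM, 2 between 0.5 and 1 RPKM, 12 between 0.1 and 0.5 RPKM and 15 below 0.1 RPKM. Reads were present in all 48 libraries for 50 members and in fewer than 24 of them for 12, and no member was at 0 throughout. The 46 members with a mean of at least 0.5 RPKM were tested for differences, and the other 27 were not. The lowest level that entered was that of Gpr157 (mean 0.583 RPKM), and the highest that did not was that of Gpr1 (0.496 RPKM).

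Gpr162, an orphan abundant in hypothalamus and other brain regions (ENSMUSG00000038390.11, chromosome 6, 124858444 to 124863983), had the highest mean, 59.3 RPKM, with 34.1 to 82.0 RPKM over the libraries. Gpr137, a lysosomal membrane protein, followed at 49.3 RPKM (35.0 to 62.5 RPKM). After these came Gpr27 at 18.2, Gpr180 at 14.7, Gpr153 at 13.8, Gpr108 at 13.5, Gpr37 at 12.8, Gpr62 at 12.6, Gpr107 at 9.06, Gpr17 at 8.86 and Gpr101 at 8.15 RPKM on average. They include genes typical of different cells. Gpr37 and Gpr62 are known from oligodendrocytes, Gpr17 from differentiating oligodendrocyte precursors, and Gpr101 from hypothalamic neurons.

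**Figure D1:**
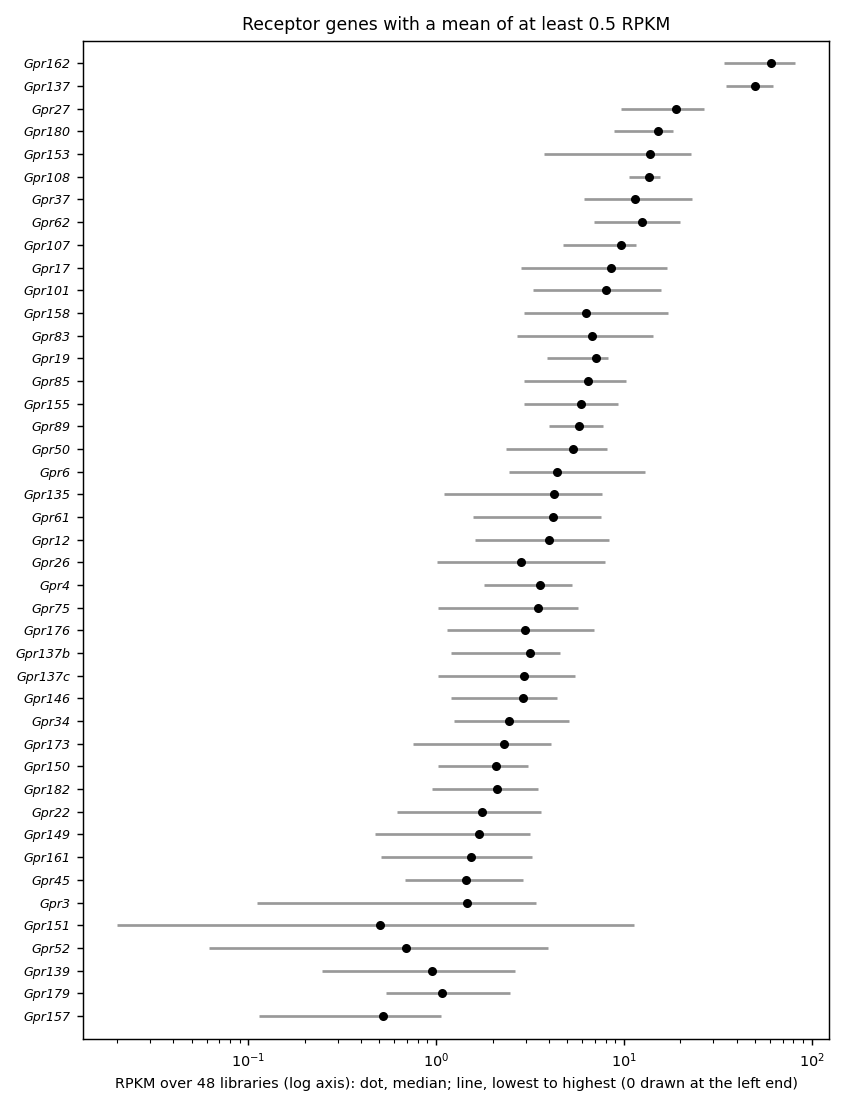
Level of 43 receptor genes that averaged at least 0.5 RPKM, ordered by mean from top to bottom. The dot is the median and the line runs from the lowest to the highest of 48 libraries on a log axis in RPKM; Gpr162 and Gpr137 lie highest, and Gpr151, which was at 0 in 1 library and reached 11.3 RPKM in another, has the longest line.

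The role groups differed in level. Among the constitutively active Gs-coupled receptors, which raise cyclic AMP without a ligand, Gpr6 averaged 5.02 RPKM, Gpr12 4.09 RPKM and Gpr3 1.55 RPKM. The receptors called SREB for their strong conservation in brain averaged 18.2 RPKM for Gpr27, 6.30 RPKM for Gpr85 and 2.20 RPKM for Gpr173. Of the proton-sensing receptors, Gpr4, known from endothelium, averaged 3.57 RPKM, while Gpr65 (0.138 RPKM) and Gpr132 (0.05 RPKM), both known from immune cells, were low. Of the pair linked to peptides from proSAAS, Gpr83 averaged 7.11 RPKM and Gpr171 0.0179 RPKM. Of 9 lipid and metabolite receptors only Gpr34 (2.47 RPKM) was tested. The other 8 averaged at most 0.360 RPKM, the value of Gpr55, a receptor for lysophosphatidylinositol.

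Receptors tied to rhythm or melatonin were all present. Gpr19 averaged 6.89 RPKM, Gpr50, the melatonin-related receptor known from tanycytes and the dorsomedial hypothalamus, 5.24 RPKM, and Gpr176, a receptor of the suprachiasmatic clock, 3.22 RPKM. Among class C orphans, relatives of the glutamate and GABA(B) receptors, Gpr158 averaged 7.76 RPKM and Gpr179 1.11 RPKM. Of the 9 measured proteins of inner membranes, 8 averaged 3.03 RPKM (Gpr137c) to 49.3 RPKM (Gpr137), and Gpr143, known from pigment cells, averaged 0.0426 RPKM.

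The members varied between libraries to very different degrees. The highest library exceeded the lowest 1.46-fold for Gpr108, 1.78-fold for Gpr137 and 1.95-fold for Gpr89, and over 2-fold for 42 members. The ratio was above 10 for 4 members, among them Gpr52 (64.3), Gpr3 (30.5) and Gpr139 (10.7). Gpr151 had 0 RPKM in 1 library, which leaves its ratio undefined. Together the 73 genes summed to 254 to 428 RPKM (median 304) in late unloaded noise libraries, 316 to 397 RPKM (median 341) in late free-moving noise libraries, 400 to 442 RPKM (median 425) in late unloaded quiet libraries and 409 to 458 RPKM (median 426) in late free-moving quiet libraries. In the early series the sum was 250 to 427 RPKM (median 403) and 239 to 354 RPKM (median 325) in unloaded series a and b, and 204 to 405 RPKM (median 290) and 233 to 311 RPKM (median 271) in free-moving series a and b.

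Noise in free-moving mice went with lower levels of most members. The comparison sets the late free-moving series in noise against the late free-moving series in quiet. Of the 46 tested members, 26 fell and 3 rose at an adjusted p below 0.05 (limma, Benjamini-Hochberg over 13685 genes, two-sided), while 57.6% of all tested genes were called in either direction. In one direction, 36.4% of all genes fell and 21.2% rose. The median log2 change was −0.47 over the 46 members and −0.15 over all tested genes. The mitochondrial share was higher in the noise series than in the quiet one (15.1% to 38.8% against 8.95% to 13.5%), and its part in the result was tested only through other treatments of the values, given with the 9 genes named further on. Of the members, 13 had all 6 noise libraries below all 6 quiet libraries, where 19.8% of all tested genes did, and 0 members had all noise libraries above, where 12.8% did.

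Gpr158, which binds RGS7 in complex with the G protein subunit Gnb5 and has been described as a glycine receptor (ENSMUSG00000045967.11, chromosome 2, 21367542 to 21830547), had 4.49 to 10.9 RPKM (median 5.97) in the 6 noise libraries, against 14.4 to 17.2 RPKM (median 15.4) in the 6 quiet libraries. The libraries do not overlap, so the gene was also lower at 6 of 6 numbers. The fitted log2 change was −1.23 ± 0.19 (standard error, adjusted p = 1.4e-06). In every quiet free-moving library Gpr158 was above each of the other 42 libraries of the study, the highest of which had 11.3 RPKM. Gpr26, a brain orphan with constitutive activity (ENSMUSG00000040125.4, chromosome 7, 131966460 to 131994405), also stood above all 42 others there, though by a narrow margin. Its lowest quiet free-moving library had 6.91 RPKM and the highest of the others, late unloaded noise number 5, had 6.83 RPKM. The 2 members compare with 10.1% of all tested genes that had this order.

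Gpr26 had 2.51 to 5.63 RPKM (median 2.68) in noise, against 6.91 to 7.98 RPKM (median 7.43) in quiet, without overlap (−1.18 ± 0.22, adjusted p = 2.3e-05). Gpr52, a Gs-coupled receptor known from striatal neurons with D2 receptors, had 0.363 to 1.39 RPKM (median 0.650) in noise, against 2.00 to 3.96 RPKM (median 3.11) in quiet (−1.56 ± 0.23, adjusted p = 4.0e-07). RefSeq places Gpr52 within the span of Rabgap1l, so reads from that gene cannot be told apart from its own here. Gpr139, a receptor for aromatic amino acids known from the habenula (ENSMUSG00000066197.5, chromosome 7, 119140747 to 119184603), had 0.474 to 1.82 RPKM (median 0.860) in noise, against 1.99 to 2.63 RPKM (median 2.23) in quiet (−0.95 ± 0.19, adjusted p = 7.6e-05). In each of these 3 receptors every noise library lay below every quiet one, from which lower values at 6 of 6 numbers follow.

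Gpr3, a constitutively active Gs-coupled receptor also known for holding oocytes in meiotic arrest (ENSMUSG00000049649.8, chromosome 4, 133209340 to 133212536), had 0.818 to 1.94 RPKM (median 1.44) in noise, against 2.08 to 3.40 RPKM (median 2.71) in quiet (−0.77 ± 0.18, adjusted p = 0.00041). Gpr176 (ENSMUSG00000040133.2, chromosome 2, 118277110 to 118373419) had 1.91 to 4.46 RPKM (median 2.46) in noise, against 5.11 to 6.93 RPKM (median 5.68) in quiet (−0.99 ± 0.22, adjusted p = 0.00023). Neither gene's noise libraries reached its quiet ones. Gpr17 had 5.24 to 14.9 RPKM (median 7.18) in noise, against 11.4 to 16.999 RPKM (median 14.3) in quiet, and here the groups overlap (−0.76 ± 0.22, adjusted p = 0.0029).

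Of the members 3 rose in noise. Gpr182, an atypical chemokine receptor of endothelial cells (ENSMUSG00000058396.7, chromosome 10, 127747276 to 127751732), had 1.77 to 3.47 RPKM (median 2.41) in noise, against 0.946 to 2.00 RPKM (median 1.44) in quiet (0.61 ± 0.14, adjusted p = 2.5e-04). Gpr179, a class C orphan of the retina (ENSMUSG00000070337.4, chromosome 11, 97332109 to 97352077), had 1.07 to 2.49 RPKM (median 1.18) in noise, against 0.767 to 1.09 RPKM (median 0.854) in quiet (0.43 ± 0.15, adjusted p = 0.015). Gpr108, a Golgi protein related to Gpr107 (ENSMUSG00000005823.9, chromosome 17, 57234635 to 57248446), had 12.7 to 15.4 RPKM (median 14.2) in noise, against 11.3 to 12.8 RPKM (median 11.9) in quiet (0.23 ± 0.081, adjusted p = 0.014). All 3 overlapped between the series at their edges and were higher at 6 of 6 numbers.

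The start regions of 4 of these genes are shown as examples, Gpr158, Gpr3 and Gpr176 lower and Gpr179 higher in noise. Each is the 250 bases before the RefSeq transcript start in GRCm38.p6, read 5′ to 3′ on the gene's strand, with CG pairs in capitals. Gpr158 is at chr2:21367317-21367566 on the plus strand, Gpr3 at chr4:133212537-133212786, Gpr176 at chr2:118373420-118373669 and Gpr179 at chr11:97352357-97352606, all on the minus strand.
Gpr158: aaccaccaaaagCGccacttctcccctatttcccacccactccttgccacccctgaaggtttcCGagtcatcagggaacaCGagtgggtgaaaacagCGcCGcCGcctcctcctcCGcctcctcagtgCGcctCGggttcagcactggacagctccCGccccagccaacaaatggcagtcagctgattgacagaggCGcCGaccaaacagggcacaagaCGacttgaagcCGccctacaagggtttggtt
Gpr3: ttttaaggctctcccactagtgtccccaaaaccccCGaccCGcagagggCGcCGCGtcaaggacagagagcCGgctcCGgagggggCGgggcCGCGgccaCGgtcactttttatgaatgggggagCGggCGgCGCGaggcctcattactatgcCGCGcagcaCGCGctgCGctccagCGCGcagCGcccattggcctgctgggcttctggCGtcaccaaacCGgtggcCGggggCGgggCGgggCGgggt
Gpr176: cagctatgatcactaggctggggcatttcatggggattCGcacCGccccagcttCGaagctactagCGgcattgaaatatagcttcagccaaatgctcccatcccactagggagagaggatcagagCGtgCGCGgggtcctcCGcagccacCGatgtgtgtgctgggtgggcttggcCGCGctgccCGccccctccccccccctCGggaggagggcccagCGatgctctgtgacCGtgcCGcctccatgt
Gpr179: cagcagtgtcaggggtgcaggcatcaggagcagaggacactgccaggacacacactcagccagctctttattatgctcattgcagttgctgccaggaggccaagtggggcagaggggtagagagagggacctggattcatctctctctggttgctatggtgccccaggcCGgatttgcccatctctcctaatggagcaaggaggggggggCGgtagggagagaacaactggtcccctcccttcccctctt
The CG pair, the site of DNA methylation, occurs 14 times in the window of Gpr158, 29 times in that of Gpr3, 16 times in that of Gpr176 and 2 times in that of Gpr179. The median was 12 over the first windows of the 30 tested members that have one and 6 over 27025 genes. The count is a description and was not tested against the changes.

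Motifs of the clock and of cyclic AMP signalling were searched on both strands of windows that run from 250 bases before to 50 after the start. The E-box CACGTG was found in 3.92% of 51 members with a window and in 8.09% of all genes, the cAMP response element TGACGTCA in 1.96% and 2.03%, the D-box TTATGTAA in 1.96% and 1.11%, and NAGGTCA in 17.6% and 18.1%. NAGGTCA is the core of the ROR element with any base before it. The A or T rich bases before the core of a full ROR element were not required. None of the 4 genes shown holds any of these motifs in its window. Among the tested members, the E-box was found in a window of Gpr146, the element TGACGTCA in that of Gpr6, and NAGGTCA in those of Gpr19, Gpr155 and Gpr161.

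By role, and beside 36.4% of all tested genes lower and 21.2% higher, 2 of 3 constitutively active Gs-coupled receptors fell in noise (Gpr3 and Gpr12, −0.59 ± 0.19 for Gpr12), and Gpr6 did not pass (−0.12 ± 0.24, adjusted p = 0.67). Of the SREB receptors Gpr85 and Gpr173 fell, by 0.52 and 0.55 on the log2 scale, and Gpr27 did not pass (−0.25). Of the 16 tested genes listed as other neuronal class A orphans 12 fell and 1 rose. The gene that rose, Gpr182, was on that list although it is known from endothelial cells. Of 4 glia-rich receptors Gpr17 and Gpr37 fell, and of 8 proteins of inner membranes 3 fell and 1 rose. Gpr50 had 5.42 to 7.88 RPKM (median 5.92) in noise, against 3.45 to 7.19 RPKM (median 4.69) in quiet, and did not pass (0.35 ± 0.17, adjusted p = 0.081).

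Of the 29 calls, 9 were also made in the same direction after quantile normalization, after removal of the mitochondrial genes with rescaling, and in a fit that took the mitochondrial share as a covariate. These were Gpr151, Gpr52, Gpr158, Gpr26, Gpr139 and Gpr3 (lower) and Gpr182, Gpr179 and Gpr108 (higher). With the covariate 6 of the 29 turned sign, among them Gpr61 and Gpr173, and the median over all genes moved to 0.17; after quantile normalization it moved to −0.02. Without the 7 libraries rich in thalamus markers, 8 members were called, all lower (Gpr52, Gpr158, Gpr26, Gpr139, Gpr176, Gpr101, Gpr45 and Gpr89), with 3 quiet free-moving libraries left. The shares of all tested genes called under these alternatives are not given here, so the counts are not read as particular to the members. Gpr3 (−0.54, adjusted p = 0.075), Gpr108 (0.28, adjusted p = 0.052), Gpr179 (0.28, adjusted p = 0.28) and Gpr182 (0.36, adjusted p = 0.094) did not pass there.

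**Figure D2:**
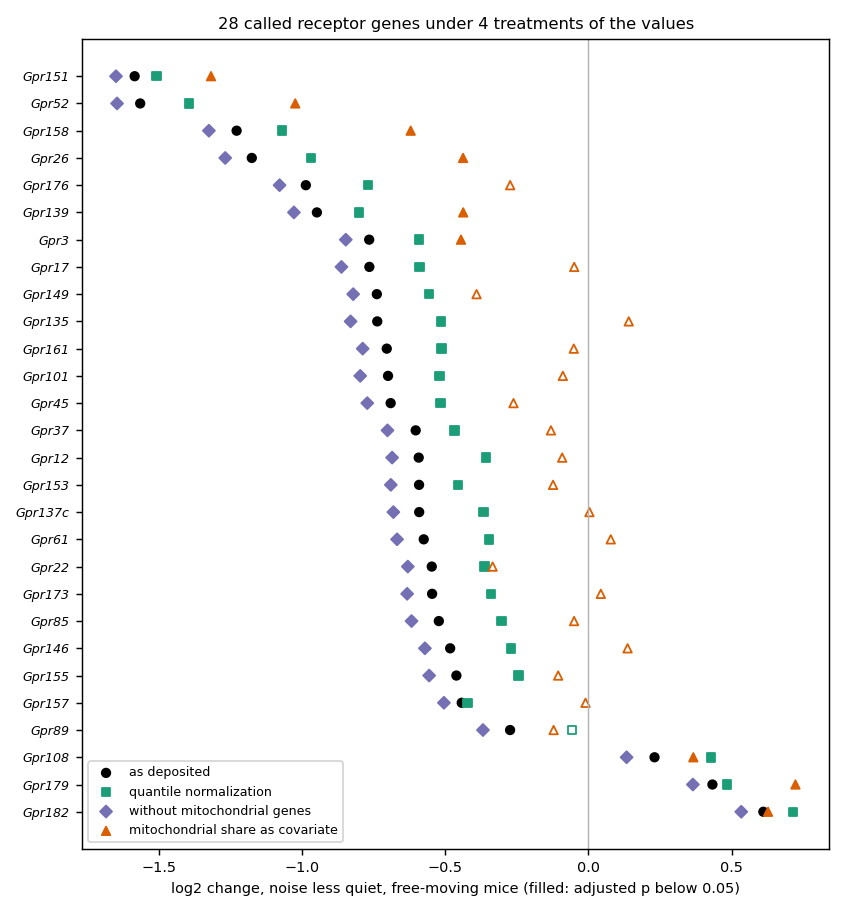
Fitted log2 change, noise less quiet in free-moving mice, of 28 receptor genes called on the deposited values, under 4 treatments of the values (marker shape and colour; filled where the adjusted p is below 0.05). With the mitochondrial share as a covariate most triangles move toward 0 and lose their fill, while 9 genes stay filled under all 4.

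In unloaded mice the comparison of noise with quiet, late unloaded in both, gave the same number of falls. Of the 46 members, 26 fell and 0 rose, where 52.3% of all tested genes were called (45.6% lower and 6.75% higher). The median log2 change was −0.46 over the members and −0.28 over all genes. Gpr52 had 0.131 to 2.00 RPKM (median 0.792) in noise, against 1.58 to 2.54 RPKM (median 2.21) in quiet (−1.15 ± 0.23, adjusted p = 0.0023). Gpr17 had 2.85 to 10.5 RPKM (median 5.93) in noise, against 9.20 to 12.9 RPKM (median 10.9) in quiet (−0.92 ± 0.22, adjusted p = 0.0030). Gpr158 had 3.61 to 9.97 RPKM (median 6.18) in noise, against 10.1 to 11.3 RPKM (median 10.9) in quiet, without overlap (−0.79 ± 0.19, adjusted p = 0.0030). The noise libraries of this series were more scattered than the quiet ones, and in Gpr26 they spanned 1.46 to 6.83 RPKM, against 5.41 to 6.38 RPKM in quiet.

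Gpr75 (−0.75 ± 0.21) and Gpr137c (−0.74 ± 0.19) fell as well, and Gpr182 did not pass (0.17 ± 0.14, adjusted p = 0.28). None of the 26 calls held in all of quantile normalization, rescaling and the covariate, which left 0 calls, and without the 7 libraries rich in thalamus markers none was made, with 2 unloaded quiet libraries left. Without number 9, 13 or 17 in all series, 11, 8 and 15 members were called. These counts, too, stand without the share of all tested genes called in the same fits.

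Late against early, in quiet free-moving mice, gave the widest change. The comparison covers a month of age together with the period, which cannot be told apart, and it shares the late quiet free-moving series with the noise comparison above. Of the 46 members, 35 rose and 1 fell, where 78.5% of all tested genes were called (60.5% higher). The median log2 change was 0.84 over the members and 0.43 over all genes. Gpr52 had 2.00 to 3.96 RPKM (median 3.11) in the late series, against 0.0626 to 1.43 RPKM (median 0.293) and 0.0616 to 0.537 RPKM (median 0.304) in early series a and b (2.00 ± 0.19, adjusted p = 1.8e-11). Every late library was above every early one.

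Gpr26 had 6.91 to 7.98 RPKM (median 7.43) in the late series, against 1.18 to 4.14 RPKM (median 2.00) and 1.01 to 1.86 RPKM (median 1.55) in early series a and b (1.82 ± 0.19, adjusted p = 5.9e-11). Gpr158 had 14.4 to 17.2 RPKM late, against 2.95 to 9.28 RPKM (median 5.33) and 3.69 to 4.70 RPKM (median 3.76) early (1.66 ± 0.16, adjusted p = 2.2e-11). Gpr139 had 1.99 to 2.63 RPKM late, against 0.371 to 1.38 RPKM (median 0.549) and 0.246 to 0.593 RPKM (median 0.443) early (1.39 ± 0.17, adjusted p = 1.4e-09). The late series did not overlap either early series in any of these 3 genes. Gpr176 (1.37 ± 0.19), Gpr135 (1.30 ± 0.23) and Gpr161, a receptor of the primary cilium (1.25 ± 0.17), rose too.

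Gpr37, a receptor of oligodendrocytes, had 17.5 to 23.1 RPKM (median 19.8) in the late free-moving series, against 6.13 to 14.4 RPKM (median 8.499) and 8.47 to 10.8 RPKM (median 9.14) in early series a and b (1.07 ± 0.13, adjusted p = 2.6e-09). The 6 oligodendrocyte markers summed to 1513 to 1970 RPKM (median 1772) in the late series, against 2000 to 4131 RPKM (median 3168) and 2551 to 3289 RPKM (median 3046) in early series a and b, and their part in the result was not tested. All 4 tested glia-rich receptors and all 3 SREB receptors rose, beside 60.5% of all tested genes. Gpr182 was the 1 member that fell, with 0.946 to 2.00 RPKM (median 1.44) late, against 0.983 to 2.31 RPKM (median 2.14) and 1.48 to 2.54 RPKM (median 2.07) early (−0.36 ± 0.12, adjusted p = 0.0056). Of these calls, 7 held in all 3 other treatments of the values (Gpr37, Gpr158, Gpr26, Gpr22, Gpr3, Gpr52 and Gpr139, all higher), while 11 of the 36 turned sign with the covariate. How many of all tested genes did so is not given here.

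In unloaded mice, late against early, 25 members rose and 0 fell, where 47.3% of all tested genes were called (38.8% higher and 8.53% lower). The median was 0.39 over the members and 0.21 over all genes. Gpr52 had 1.58 to 2.54 RPKM (median 2.21) in the late series, against 0.533 to 2.85 RPKM (median 1.29) and 0.253 to 0.491 RPKM (median 0.314) in early series a and b (1.08 ± 0.19, adjusted p = 0.00032). Gpr26 had 5.41 to 6.38 RPKM (median 6.02) late, against 1.51 to 5.71 RPKM (median 4.27) and 1.49 to 3.02 RPKM (median 2.34) early (0.87 ± 0.19, adjusted p = 0.00090). In both genes the late series lay above early series b and overlapped early series a. Gpr37, Gpr158, Gpr26, Gpr151 and Gpr52 were called in all treatments of the values, and no member was called without the 7 libraries rich in thalamus markers. The share of all tested genes called in those fits is not given here.

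**Figure D3:**
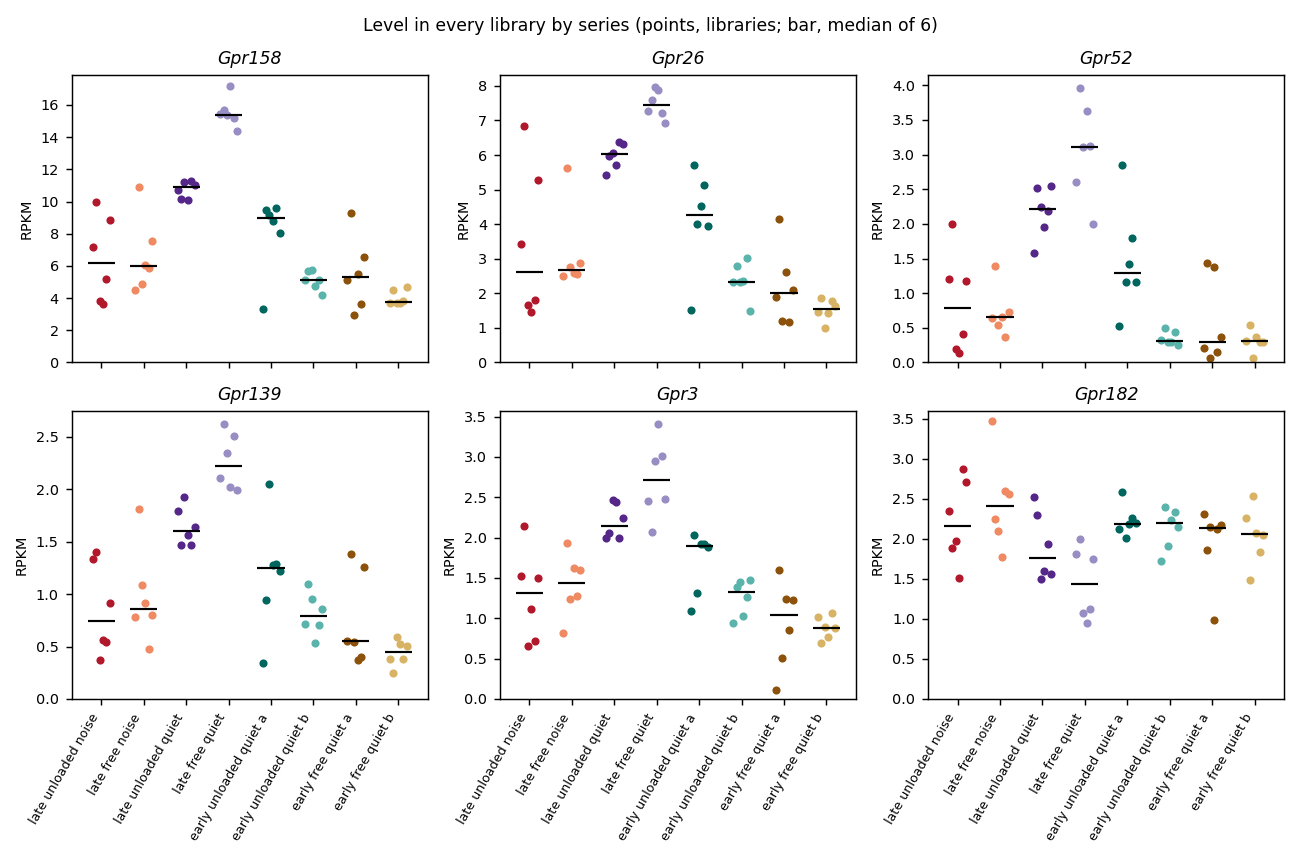
RPKM of 6 receptor genes in every library, by series (points, 6 libraries each; bar, median). In Gpr158, Gpr26, Gpr52, Gpr139 and Gpr3 the late free-moving quiet series has the highest median of all 8 series, and in Gpr182 it has the lowest, 1.44 RPKM.

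Unloading in the early period went with higher levels of many members, near the share of all tested genes that rose. Members were not called in each pair of series. With both early unloaded series set against both early free-moving series, 26 of the 46 members rose and 0 fell, where 52.8% of all tested genes were called (50.9% higher and 1.88% lower). The median was 0.31 over the members and 0.23 over all genes. Gpr26 had 1.51 to 5.71 RPKM (median 4.27) and 1.49 to 3.02 RPKM (median 2.34) in unloaded series a and b, against 1.18 to 4.14 RPKM (median 2.00) and 1.01 to 1.86 RPKM (median 1.55) in free-moving series a and b (0.65 ± 0.15, adjusted p = 0.0043, higher at 6 of 6 numbers). Gpr3 had 1.10 to 2.03 RPKM (median 1.90) and 0.938 to 1.47 RPKM (median 1.33) unloaded, against 0.112 to 1.59 RPKM (median 1.04) and 0.695 to 1.07 RPKM (median 0.882) free-moving (0.53 ± 0.13, adjusted p = 0.0043). The groups overlap in both genes. Number 9 of unloaded series a stands apart, with anterior pituitary markers (Gh, Prl, Cga, Tshb and Pou1f1) summing to 12131 RPKM, against a median of 4.78 RPKM in its series. Without that library 18 members were called, and the share of all tested genes in that fit is not given here.

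Gpr162 also rose (0.46 ± 0.11, adjusted p = 0.0043), as did Gpr61 (0.55 ± 0.14), the 3 SREB receptors, Gpr83 (0.44 ± 0.15, adjusted p = 0.015), Gpr176 (0.42) and Gpr19 (0.23 ± 0.075, adjusted p = 0.013). Gpr34 (−0.13 ± 0.10, adjusted p = 0.25) and Gpr108 (0.075 ± 0.057, adjusted p = 0.25) did not pass. With unloaded series b alone set against either free-moving series 0 members were called, and with the covariate for the mitochondrial share 0 were called and 10 of the 26 turned sign. Without number 9 or 17 in all series 0 were called, and without number 13 12 were. The shares of all tested genes called in these other fits are not given here, so the counts are not read as particular to the members. The share was 11.2% to 48.2% and 24.6% to 51.0% in the unloaded series and 18.7% to 62.4% and 31.7% to 53.2% in the free-moving series.

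Series a and b, which carry the same labels, were compared with each other. With both b series set against both a series, 4 members were lower in b and 1 was higher, where 10.4% of all tested genes were called (6.67% lower and 3.72% higher). Gpr52 was lower in b (−0.71 ± 0.16, adjusted p = 0.013), as were Gpr26 (−0.48 ± 0.15, adjusted p = 0.043), Gpr158 (−0.44 ± 0.13, adjusted p = 0.036) and Gpr155, a lysosomal protein (−0.31). Gpr4 was higher in b (0.30 ± 0.09, adjusted p = 0.039). Gpr52 had 0.253 to 0.491 RPKM in unloaded series b and 0.533 to 2.85 RPKM in unloaded series a, which do not overlap under the same labels. In the free-moving pair it had 0.0616 to 0.537 RPKM (median 0.304) in series b and 0.0626 to 1.43 RPKM (median 0.293) in series a, which overlap. Gpr52 alone of the 5 was called in all treatments of the values, and 1 call was left without the number terms. For these fits the share of all tested genes called is not given here.

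Unloading in the late period gave few calls in the fit of all series, and in quiet their number depended on the fit. In quiet, late unloaded against late free-moving, 1 of 46 members fell and 0 rose, where 12.8% of all tested genes were called (3.38% lower and 9.38% higher). The count was 23 when only those series were fitted, 9 after quantile normalization, and 6 after rescaling or with the covariate. The 12.8% belongs to the fit of all series, and the shares of all genes called under the other fits are not given here. The gene called with all series was Gpr34, the lysophosphatidylserine receptor of microglia (ENSMUSG00000040229.11, chromosome X, 13632089 to 13640858). It had 2.12 to 2.80 RPKM (median 2.58) in unloaded libraries, against 2.79 to 5.08 RPKM (median 3.67) in free-moving libraries, and was lower at 6 of 6 numbers, the ranges overlapping at their edge (−0.44 ± 0.14, adjusted p = 0.031). It was called under each other treatment of the values, but lost when number 1, 5, 13, 17 or 21 was left out (adjusted p = 0.06, 0.099, 0.18, 0.068 and 0.061) and without the 7 libraries rich in thalamus markers (−0.55, adjusted p = 0.48). The 6 microglia markers summed to 89.1 to 112 RPKM in unloaded and 87.5 to 107 RPKM in free-moving libraries, and none of them passed the test, from −0.31 for P2ry12 to 0.35 for Aif1. In bulk tissue, fewer cells of a type and less RNA per cell cannot be told apart.

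Gpr158 came next in quiet, with 10.1 to 11.3 RPKM (median 10.9) in unloaded libraries, against 14.4 to 17.2 RPKM (median 15.4) in free-moving libraries. The libraries do not overlap, so the gene was also lower at 6 of 6 numbers. Yet it did not pass (−0.51 ± 0.19, adjusted p = 0.066) in the fit of all series, which share 1 estimate of the spread. Gpr22 (−0.40, adjusted p = 0.12) and Gpr137 (0.21, adjusted p = 0.12) followed. In noise, late unloaded against late free-moving, 0 of 46 members were called by limma, 2 had an unadjusted p below 0.05, and 0.0146% of all tested genes were called. The smallest p-values were those of Gpr34 (−0.44 ± 0.14, adjusted p = 0.73), Gpr17 (−0.48 ± 0.22, adjusted p = 0.77) and Gpr6 (0.46 ± 0.24, adjusted p = 0.77). Gpr34 had 1.40 to 2.49 RPKM (median 2.02) in unloaded libraries, against 1.86 to 3.46 RPKM (median 3.20) in free-moving libraries, with overlap. Gpr34 thus had nearly the same fitted value with and without noise, and the test of the difference gave 0.0019 ± 0.20 (95% interval −0.40 to 0.41, adjusted p = 1.0).

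The interaction of unloading with noise, the unloading change in noise less that in quiet, was called in 0 of 46 members by limma, where 4.38% of all tested genes were called (3.9% lower and 0.482% higher). An unadjusted p below 0.05 was found for 3 members, Gpr4 (−0.43 ± 0.19, adjusted p = 0.18), Gpr182 (−0.44 ± 0.19, adjusted p = 0.19) and Gpr137 (−0.26 ± 0.13, adjusted p = 0.26). All 4 late series enter this value, so it shares libraries with the late comparisons above.

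**Figure D4:**
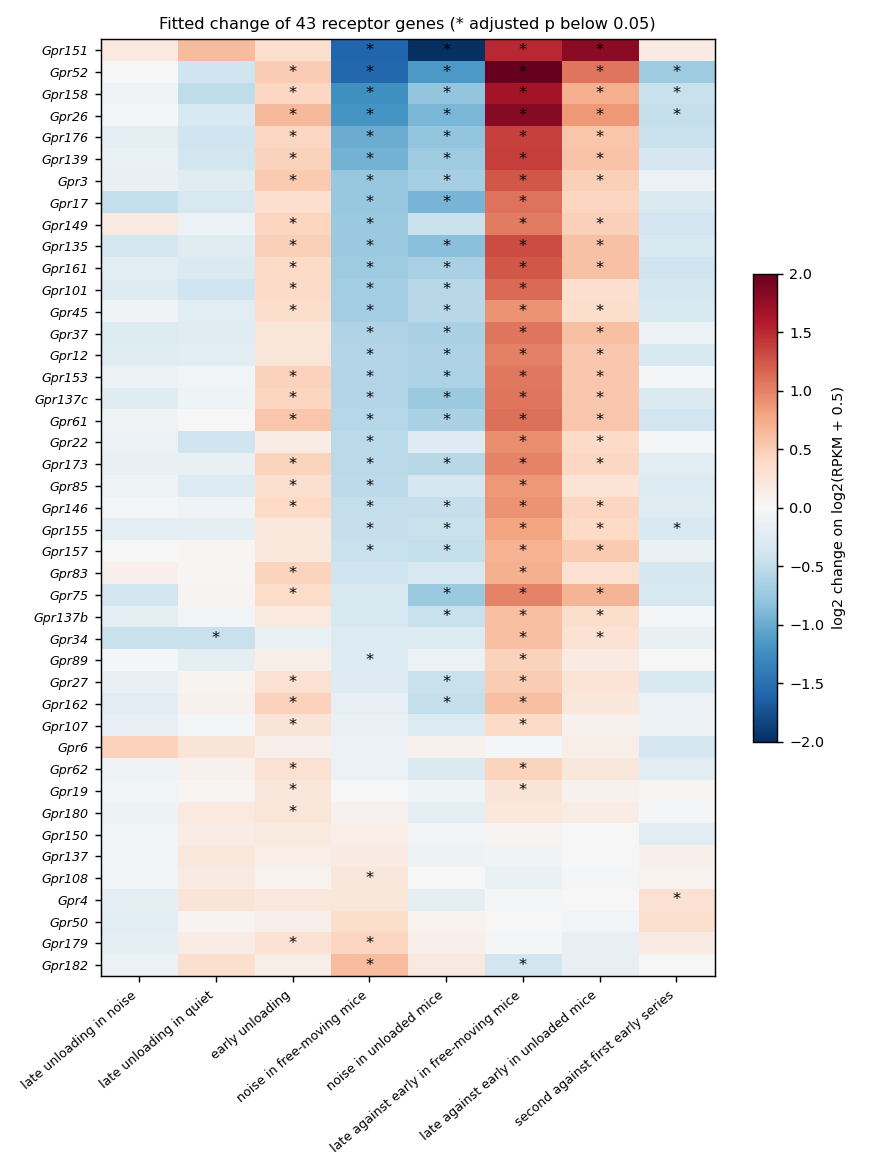
Fitted log2 change of 43 tested receptor genes (rows, ordered by the change with noise in free-moving mice) in 8 comparisons (columns), with stars for an adjusted p below 0.05. Blue fills the noise columns for most genes and red the late against early columns, and the late unloading columns hold 1 star between them, for Gpr34 in quiet.

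No member passed a test for a daily course. With the title number read as hours of a day, which the labels do not say, a wave with a period of 24 was fitted over all 48 libraries. By limma, 0 of 46 members were called and 4 had an unadjusted p below 0.05, while 1.76% of all tested genes were called. The clock genes served as a check, and 8 of 12 passed, among them Dbp (peak to trough 1.21 on the log2 scale, peak at 20.8), Ciart (0.89), Per2 (0.97) and Arntl (0.56, peak at 8.46). The smallest p among members was that of Gpr17 (0.59, peak at 4.27, adjusted p = 0.097), followed by Gpr89 (0.21, adjusted p = 0.12), Gpr151 (1.07, adjusted p = 0.16) and Gpr182 (0.33, adjusted p = 0.17). Of the receptors tied to rhythm, Gpr176 had a peak to trough of 0.31 (adjusted p = 0.56), Gpr50 0.25 (adjusted p = 0.54) and Gpr19 0.064 (adjusted p = 0.86).

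Gpr151, a receptor known from neurons of the habenula (ENSMUSG00000042816.4, chromosome 18, 42577881 to 42579652), showed a pattern set by single libraries. In the late unloaded quiet series it had 0.546, 0.482, 11.3, 6.72, 7.22 and 6.06 RPKM at numbers 1 to 21 in order, and in the late free-moving quiet series 0.685, 0.474, 4.85, 6.95, 6.94 and 0.444 RPKM. It was high in 7 of these 12 libraries and low in the others. In noise it had 0.172 to 1.198 RPKM unloaded and 0.229 to 0.660 RPKM free-moving, and in the early series it was at most 3.59 RPKM, at number 9 of unloaded series b.

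The 7 libraries with high Gpr151 are those rich in Tcf7l2, Prkcd, Lef1 and Rora. Chrnb4, a nicotinic subunit of the habenula, had 0.998 to 2.92 RPKM in them, against 0 to 0.832 RPKM in the other 41 libraries. The list of habenula and thalamus markers also held Tac2 and Chrna3, whose own values are not given here. All 7 genes of that list summed to 46.5 to 135 RPKM in late free-moving quiet and 58.1 to 135 RPKM in late unloaded quiet libraries. In early unloaded series b the sum was 68.8 to 89.4 RPKM, so the full list overlapped between these series. Gpr151 was called lower in noise in free-moving mice (−1.58 ± 0.44, adjusted p = 0.0025) and in unloaded mice (−2.02 ± 0.44, adjusted p = 0.0026), and higher late against early in free-moving (1.51 ± 0.38) and unloaded mice (1.798 ± 0.38). Without the 7 libraries the same values were −0.31 (adjusted p = 0.52), −0.18 (adjusted p = 0.80), 0.24 (adjusted p = 0.54) and −0.043 (adjusted p = 0.96). The late quiet libraries at numbers 1 and 5 of both series, and at number 21 of the free-moving series, had Gpr151 in the range of the noise series.

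**Figure D5:**
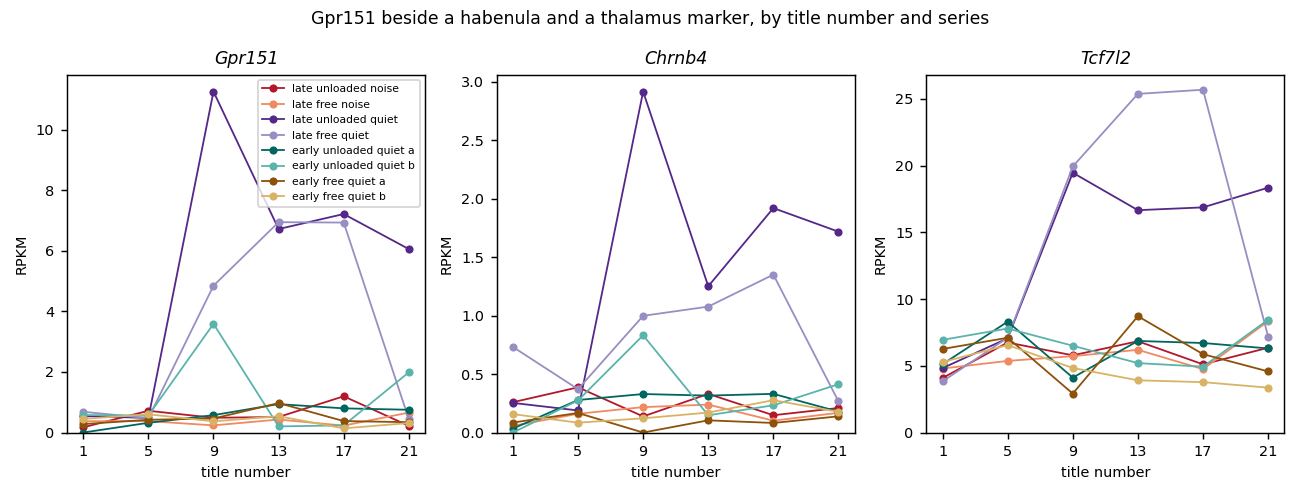
RPKM of Gpr151, of the habenula marker Chrnb4 and of the thalamus marker Tcf7l2 against the number in the library title, 1 line per series. All 3 genes are high at numbers 9 to 21 of the late unloaded quiet series and at 9 to 17 of the late free-moving quiet series, and Gpr151 reaches 11.3 RPKM there.

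Gpr6, which is enriched in striatal neurons (ENSMUSG00000046922.7, chromosome 10, 41069977 to 41072285), varied within series and was called in none of the comparisons. It had 3.85 to 8.09 RPKM (median 5.69) in late unloaded noise, 2.79 to 5.01 RPKM (median 4.18) in late free-moving noise, 3.91 to 7.65 RPKM (median 5.30) in late unloaded quiet and 3.70 to 5.20 RPKM (median 4.41) in late free-moving quiet libraries. It reached its maximum of 12.95 RPKM at number 1 of early free-moving series a, where Adora2a, a marker of striatal neurons, had 21.26 RPKM. The highest Adora2a, 21.35 RPKM, was at number 5 of early unloaded series a, where Gpr6 had 8.82 RPKM. The part of striatal tissue in these values was not tested.

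Gpr17 (ENSMUSG00000052229.5, chromosome 18, 31942997 to 31949636) had its highest median in the late free-moving quiet series. It had 11.4 to 16.999 RPKM in late free-moving quiet libraries, against 5.24 to 14.9 RPKM in late free-moving noise and 4.73 to 15.1 and 4.63 to 8.69 RPKM in series a and b of the early free-moving mice. The 4 markers of oligodendrocyte precursors, Pdgfra, Cspg4, Bmp4 and Neu4, summed to 11.9 to 17.5 RPKM (median 13.3) in late free-moving noise libraries, against 15.8 to 19.1 RPKM (median 18.4) in late free-moving quiet libraries, and their part in the result was not tested.

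The machinery on which these receptors act changed with noise in free-moving mice as well. Of 11 tested G protein alpha subunits 8 fell and 0 rose, with a median log2 change of −0.54, where 36.4% of all tested genes fell and 21.2% rose. Gnaq, of the Gq class, fell by 1.14 and Gna13 by 1.02. Of 9 adenylyl cyclases 7 fell and 1 rose, with a median of −0.73; Adcy9 fell by 1.66 and Adcy3 by 1.92. Of 13 beta and gamma subunits 6 rose and 5 fell, Gnb2 rising by 0.57 (adjusted p = 4.3e-06) and Gng13 by 1.43. Of 16 RGS proteins 7 fell, among them Rgs8 (−1.19 ± 0.18), and 3 rose, among them Rgs11 (1.66 ± 0.14, adjusted p = 6.5e-12). Of 7 receptor kinases and arrestins 2 rose and 2 fell, Arrb2 rising by 0.60 and Grk5 changing by −0.50. Pcsk1n, which encodes the proSAAS precursor of ligands for Gpr83, rose by 0.76 (adjusted p = 5.8e-06) while Gpr83 had −0.40 ± 0.21 (adjusted p = 0.10). Apart from Gpr83, these genes were not tested with the mitochondrial share as a covariate.

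In late against early free-moving mice the counts ran the other way in comparisons that share the late quiet free-moving series. Of the alpha subunits 10 of 11 rose and 0 fell, of the cyclases 8 rose and 1 (Adcy4) fell, and of the RGS proteins 11 rose and 2 (Rgs11 and Rgs9) fell, where 60.5% of all tested genes rose. With early unloading 7 of 11 alpha subunits and 8 of 9 cyclases rose, where 50.9% of all tested genes did. With late unloading in quiet, 3 alpha subunits fell and 0 rose, where 3.38% of all tested genes fell and 9.38% rose. With late unloading in noise 0 of the 11 were called, where 0.0146% of all tested genes were. These genes were listed by function, with earlier results of these data known.

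Transcript length and base composition were set beside the log2 changes. Length and GC content were those of the longest GENCODE M21 transcript of each gene. Across the 45 members with an annotation, the noise change in free-moving mice had a rank correlation of −0.353 with this length and 0.44 with GC content, against −0.522 and 0.341 across 13535 genes. For late against early in free-moving mice the values were 0.38 and −0.475 in members and 0.562 and −0.322 across all genes. For late unloading in quiet they were −0.51 and 0.583 in members and −0.505 and 0.389 across all genes, and for early unloading 0.266 and −0.066 in members and 0.376 and 0.012 across all genes. These describe genes within the same libraries, which are not independent replicates. Of these 45 members, Gpr137 (15.4% of exon bases) and Gpr89 (27.9%) share over 10% of their exon bases with genes on the opposite strand, and the sources used here do not say whether counting used strand.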

How the data were processed

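The deposited values are RPKM per gene, made by the authors from RNA of mouse hypothalamus extracted with Trizol, with 1 column for each of 48 libraries (pools of 3 mice). Per the submitters' processing notes, CASAVA 1.8 and HISAT were used; its version, the build and the gene models were not given in the sources used here. Series were taken from the labels. The members and gene lists were chosen with earlier results of these data known.

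Depth was recovered from whole-read steps in RPKM with GENCODE M21 exon lengths: 63.2% to 69.1% of low values (up to 12 reads) were whole within 0.02 reads, so the shares are too low for a count test. It came to 28.3 to 55.2 M reads (median 38.1). Gene IDs and positions are those of GENCODE M21 (GRCm38), matched by symbol for 72 of 73 members, all but Gpr52.

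Differences were fitted with limma 3.58.1 in R 4.3.3 on log2(RPKM + 0.5), with an intensity trend, for 13685 genes with a mean of at least 0.5 RPKM. All 48 libraries entered 1 fit with terms for series and title number (35 residual degrees of freedom). Calls are at an adjusted p below 0.05 (Benjamini-Hochberg, two-sided). Fold changes on this scale understate changes of low genes, and errors given with ± are standard errors. The daily course is an F test of a sine and cosine. The fits were tested on simulated data with known changes. No pair of libraries was identical (highest correlation within a series 0.9974). Named genes are the 12 most abundant members, up to 8 called rises and 8 called falls per comparison, the role groups, and 12 receptors chosen by name; not all are printed. Genes of the overlap counts, the Gpr151 library pattern and the promoter hits were named after their values were seen. Start-region sequences are from RefSeq (GRCm38.p6), where 51 members have a window; CG pairs were counted after the data had been seen. Alternatives were a pseudocount of 0.1, no filter, quantile normalization, a table without mitochondrial genes rescaled to a common sum, the mitochondrial share (log2 odds) as a covariate, no number terms, the compared series only, single pairs of early series, and libraries or numbers left out; those without libraries rich in thalamus markers (over 30 RPKM summed) or with numbers 1 and 5 only were chosen after seeing the data. A few members are counted among the 73 but not reported by name or drawn.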

Additional observations from a re-analysis of the deposited data

Results flagged for a closer look

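In 17 receptor genes the 6 libraries of each of the 8 series were searched for a library far from the other 5 (Dixon's criterion at the 95% level). Of 136 such groups 8 were found, where chance gives about 1 in 20. Gpr158 had 3.32 RPKM at number 1 of early unloaded series a, against 8.06 to 9.60 RPKM in the other 5. Gpr26 had 5.63 RPKM at number 5 of the late free-moving noise series, against 2.51 to 2.88 RPKM, and Gpr52 had 1.39 RPKM in that library, against 0.363 to 0.732 RPKM. Gpr176 had 1.32 RPKM at number 21 of early unloaded series b, against 2.14 to 2.55 RPKM. Gpr182 had 0.983 RPKM at number 13 of early free-moving series a, against 1.86 to 2.31 RPKM, and Gpr151 had 0.973 RPKM in that library, against 0.279 to 0.463 RPKM. Gpr179 had 2.49 RPKM at number 9 of the late free-moving noise series, against 1.07 to 1.49 RPKM, and Gpr50 had 7.88 RPKM there, against 5.42 to 6.34 RPKM. Of these values, 6 come from 3 libraries with a pair each, and the part of the library in them was not tested.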

How the results depend on the processing

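Counts of called members are out of 46. The share of all tested genes called under each alternative is not given here, so no count is read as particular to the members. With the mitochondrial share as a covariate they were 0 (early unloading), 6 (late unloading in quiet), 18 (noise, free-moving), 0 (noise, unloaded), 17 (late against early, free-moving), 7 (late against early, unloaded), 4 (unloading by noise), 3 (second against first early series) and 3 (daily course). Such counts can include members not called on the deposited values. With the covariate, only 1 (late unloading in quiet), 9 (noise, free-moving), 12 and 5 (late against early, free-moving and unloaded) and 1 (second against first) were called in both. Quantile normalization gave 8 for early unloading, 9 for late unloading in quiet, 16 for late against early in unloaded mice, 1 for the interaction, 12 for the second against the first series and 2 for the daily course. Rescaling without mitochondrial genes gave 12, 6 and 14 for early unloading, late unloading in quiet and second against first. No filter gave 3 for late unloading in quiet, 1 for the interaction and 1 for second against first. Fits of the compared series alone gave 14 for early unloading, 23 for late unloading in quiet and 1 for second against first. Early unloading from unloaded series b and either free-moving series gave 0. Without the thalamus-rich libraries the counts were 0 (late unloading in quiet), 8 and 0 (noise, free-moving and unloaded), 0 (late against early, unloaded) and 1 (second against first). Numbers 1 and 5 alone gave 0 for each comparison called here except late against early in free-moving mice. Late series only gave 1 for the daily course. Without early free-moving a number 1 the second against first count was 8 and the daily course 1; without early unloaded a number 9 that second against first count was 1. Leaving out each number in turn gave 0 to 33 (early unloading), 0 to 1 (late unloading in quiet), 24 to 30 (noise, free-moving), 8 to 29 (noise, unloaded), 35 to 38 and 17 to 23 (late against early, free-moving and unloaded), 0 to 22 (second against first, 22 without number 1 and 0 without 5 or 13) and 0 to 2 (daily course). Gpr52 turned to −0.20 when unloaded b was set against free-moving a. With the covariate Gpr135 turned to −0.14 (early unloading), −0.11 and −0.019 (late against early, free-moving and unloaded). Gpr151 turned to −0.043 for late against early in unloaded mice without thalamus-rich libraries. The cause of these shifts was not tested. Without the replicate block, that is, without number terms, the second against first count was 1, early unloading 25 and late against early in unloaded mice 22. Libraries of 1 number had a median r of 0.08 over 168 pairs (−0.525 to 0.787), against −0.017 for other pairs. Not every pair was above 0.1, so a shared number is not read as a pairing of samples, although numbers 9, 13 and 17 were rich in thalamus markers in both late quiet series. The main fit still held a term for each number, and the counts at 6 of 6 numbers set libraries of 1 number side by side.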
